A study of Mus musculus with 8 samples.

Results

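The response of mouse astrocytes to TNF-α was measured under knockdown of GSTM1, a cytosolic glutathione S-transferase that conjugates glutathione to electrophilic compounds. The comparison set the 2 RNA-seq libraries of GSTM1 knockdown (KD) astrocytes stimulated with TNF-α against the 2 libraries of the same KD at the basal level, which are 4 of the 8 libraries of the series, and it was made across all genes in both directions. Astrocytes came from cortices of C57BL/6 mouse pups at postnatal days 2 to 5. They were infected as mixed glia with a lentivirus carrying an shRNA against Gstm1, selected with puromycin, shaken to remove oligodendrocyte lineage cells and microglia, and collected as the CD11b-negative fraction, so both groups carried the shRNA, the virus and the selection. The stimulated group received TNF-α at 50 ng/ml for 6 h and the basal group received none. The study also holds 2 basal and 2 stimulated libraries from astrocytes with a non-silencing shRNA (control KD), which entered here into the filter on low counts, the scaling, the estimate of the spread and the check of Gstm1. Each group had n = 2 libraries. They are described as biological replicates, but what a replicate number stands for (a dissection, a flask or a well) is not given in the sources used here, so the p-values measure the spread between these libraries. The KD acted on the whole culture and not on astrocytes alone.

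TNF-α binds TNF receptors on the cell surface and assembles a complex of adaptors, kinases and ubiquitin ligases that frees NF-κB transcription factors from their IκB inhibitors and also activates MAP kinases and AP-1. NF-κB then switches on chemokines, adhesion molecules and its own inhibitors, and factors such as IRF1 extend the response to interferon-type genes with a delay. Astrocytes react to this cytokine early in brain inflammation, and their chemokines, colony stimulating factors and adhesion molecules recruit and sustain microglia and blood leukocytes.

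The basal libraries held 22565115 and 19772259 expected counts (the estimated number of fragments per gene) and the stimulated libraries 21812051 and 17635438, and between 20218 and 20686 of the 54146 listed genes had a count. Levels are given in CPM, the count divided by the TMM-scaled library size, in the order replicate 1 and replicate 2. Gstm1 itself was low in every library, with counts of 676 and 626 at the basal level and 527 and 405 after TNF-α, against 4851 to 9644 in the 4 control KD libraries. Its level did not pass the test between the groups (log2 fold change -0.34, SE 0.328, adjusted p = 0.934). A floor of 3 counts corresponds to 0.139 CPM at the basal level and 0.155 CPM after TNF-α, which covers counting error only. The counts of the replicates differed by more than counting error, with a chi-square per degree of freedom of 13.2 between the basal and 15.0 between the stimulated libraries, and the common coefficient of variation over all genes was 15.4%. The 10 astrocyte markers summed to 6567 and 9601 CPM in the basal libraries and 6721 and 9513 CPM in the stimulated libraries, so replicate 2 was the higher in both states. The 16 microglia and macrophage markers summed to 47.8 to 58.3 CPM, and Aif1 stood at 0 in all 4. Markers of fibroblasts and mural cells summed to 1564 to 2009 CPM, the 12 oligodendrocyte lineage markers reached 537 to 615 CPM, the neuronal markers 429 to 506 CPM, the ependymal and choroid plexus markers 135 to 161 CPM and the endothelial markers 10.5 to 20.6 CPM. Among all marker genes only Olig2 passed the test, and it was lower. In bulk RNA, fewer cells of a type and less RNA per cell cannot be told apart.

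Most genes that passed the test in the KD astrocytes were higher after TNF-α. Of 15332 genes tested, 406 passed edgeR's quasi-likelihood test with a Benjamini-Hochberg adjusted p under 0.05, which is 2.65% of all genes. The induced side held 361 genes (2.35% of the genes tested) and the repressed side 45 genes (0.294%). At an unadjusted p under 0.05 the number was 1670, with 1062 higher and 608 lower, a less uneven split. Induced genes had a median log2 fold change of 1.79. By their fitted values, 271 of them rose at least 2-fold, 170 at least 4-fold and 67 at least 16-fold. These numbers include 7 genes without basal counts, for which the counts give only a lower bound, from 3.97-fold for Csf2 to 26.7-fold for Ccl20. Repressed genes had a median of -0.71, and 10 of them fell at least 2-fold. The unnamed locus RP23-208G5.5 was the only one of the 45 with a fitted fall of at least 4-fold. It had counts of 18 and 7 at the basal level and 0 and 0 after TNF-α, at least 3.61-fold lower when set against 3 counts per library (adjusted p = 0.0497, and 0.239 without basal replicate 1). The median over all genes tested was -0.01. In all 406 genes the groups did not overlap in CPM, which was the case for 44.5% of the genes tested. The induced genes summed to 12744 and 12579 CPM at the basal level and to 44933 and 36303 CPM after TNF-α.

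Of the induced genes, 69 had a basal mean under 1 CPM, and 7 had no count in either basal library. Cxcl10 moved from rank 8458 to rank 13 of all genes by mean TPM, a level per transcript length, at 13.6 TPM before and 4303 TPM after stimulation. Ccl2 moved from rank 11021 to rank 57, with 4.99 and 1549 TPM. Both chemokines thus rose to among the most abundant transcripts, and Ifit3, Vcam1, Csf1 and Nfkbia also entered the first 231 ranks. Leaving out 1 library of the comparison reduced the number of genes that passed to 83 without basal replicate 1, 74 without basal replicate 2, 167 without TNF-α replicate 1 and 255 without TNF-α replicate 2, the remaining library of the group being assumed to vary like the other groups. A core of 66 genes, all induced, passed in each of these 4 fits. Of the genes named here it held Nfkbie, Nfkbia, Relb, Nfkb2, Birc3, Tnip1, Tnfaip2, Ripk2, Tlr2, Junb, Irf1, Irf5, Irf9, Icam1, Vcam1, Sele, Selp, Cxcl10, Cxcl16, Cx3cl1, Ccl2, Ccl5, Ccl7, Ccl20, Il23a, Tnfsf10, Ifngr2, Ifit1, Rsad2, Rtp4, Parp14, Gbp5, Irgm1, Irgm2, Ifi47, Tgtp1, H2-Q4, Tap1, Cd74, Cd83, Casp4, Plau, Stx11 and RP23-52N2.1, and every other called gene named here lost its call in at least 1 of the 4 fits. Exons of 146 of the 406 genes overlap another annotated gene, 37 of them on the same strand and 114 on the opposite strand, and the sources used here do not say if strand entered the counting. Among the genes named here this applies on the opposite strand to Cxcl10 (with Art3), Bcl3, Bid, Cd274, Ciita, Csf2, Cxcl11, Cxcl16, Dll1, Gbp2, H2-Q4, Icam1, Ifi47, Il34, Irf1, Irf5, Irf7, Junb, Myd88, Nfkb2, Nfkbib, Nlrc5, Notch1, Plekhh3, Psmb8, Psmb9, Pxdc1, Rab3a, Rfx5, Ripk1, Sdad1, Selp, Slc1a2, Spry1, Sqstm1, St6galnac5, Tap1, Tap2, Tlr3, Tnfaip2, Tnfaip8, Tub, Vcam1 and Zfp36. On the same strand it applies to Cd74, Cfb, Ifi47, Irf9, Irgm2, Parp14, Ripk1, Rnf31, Rtp4, Tgtp1 and RP23-14F5.7. List counts below refer to the members tested, and over all genes tested 2.35% were induced and 0.294% repressed. Below, a library left out is 1 of the 4 of the comparison unless stated otherwise. Counts of induced genes in a list that are followed by 4 numbers give the numbers that passed without basal replicate 1, basal replicate 2, TNF-α replicate 1 and TNF-α replicate 2, in this order.

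**Figure D1:**
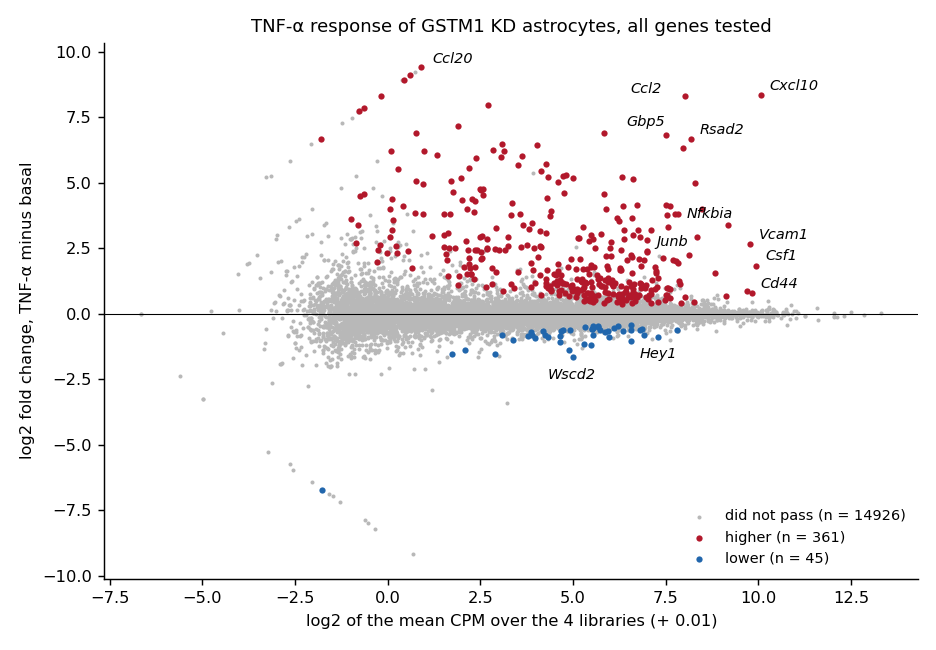
Log2 fold change after TNF-α (vertical axis) against the log2 of the mean CPM (horizontal axis) for the 15332 genes tested in GSTM1 KD astrocytes, with the 361 induced and 45 repressed genes coloured. Induced genes extend to far larger changes than repressed genes, and Cxcl10 and Ccl2 lie at the top among the abundant genes.

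The sequences before the start sites of 6 induced genes are shown as examples from the NF-κB, chemokine and interferon response lists. They are the 250 bases before the RefSeq start (GRCm38.p6), written 5′ to 3′ on the strand of the gene, with matches to the NF-κB consensus or to a pair of GAAA separated by 2 bases of any kind in capitals, searched on both strands. The windows are chr17:45555450-45555699 (+) for Nfkbie, chr12:55492648-55492897 (-) for Nfkbia, chr11:53769764-53770013 (+) for Irf1, chr5:92348890-92349139 (-) for Cxcl10, chr3:142496684-142496933 (+) for Gbp5 and chr19:34640639-34640888 (+) for Ifit1.
Nfkbie: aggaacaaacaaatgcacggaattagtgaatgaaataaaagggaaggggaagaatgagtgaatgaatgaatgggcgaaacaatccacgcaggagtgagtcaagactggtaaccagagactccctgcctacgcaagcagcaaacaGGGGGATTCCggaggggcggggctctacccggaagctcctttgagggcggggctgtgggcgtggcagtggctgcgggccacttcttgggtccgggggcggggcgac
Nfkbia: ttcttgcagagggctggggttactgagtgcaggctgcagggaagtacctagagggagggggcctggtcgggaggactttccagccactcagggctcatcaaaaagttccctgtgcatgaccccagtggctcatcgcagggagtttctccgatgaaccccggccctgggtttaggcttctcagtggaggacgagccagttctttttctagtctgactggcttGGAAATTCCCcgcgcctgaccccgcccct
Irf1: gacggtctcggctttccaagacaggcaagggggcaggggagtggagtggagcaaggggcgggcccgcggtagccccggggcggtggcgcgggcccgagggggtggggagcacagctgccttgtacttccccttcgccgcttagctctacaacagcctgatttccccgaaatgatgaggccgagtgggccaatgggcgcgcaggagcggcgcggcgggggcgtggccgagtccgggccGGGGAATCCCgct
Cxcl10: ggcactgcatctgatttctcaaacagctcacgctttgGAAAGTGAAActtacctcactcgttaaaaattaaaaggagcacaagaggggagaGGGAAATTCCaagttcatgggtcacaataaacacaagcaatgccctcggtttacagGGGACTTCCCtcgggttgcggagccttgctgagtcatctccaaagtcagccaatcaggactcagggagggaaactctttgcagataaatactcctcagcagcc
Gbp5: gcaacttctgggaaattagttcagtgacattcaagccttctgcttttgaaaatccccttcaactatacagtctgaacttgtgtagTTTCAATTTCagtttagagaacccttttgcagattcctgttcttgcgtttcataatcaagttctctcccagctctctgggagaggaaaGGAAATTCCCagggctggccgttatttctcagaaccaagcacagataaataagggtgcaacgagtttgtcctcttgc
Ifit1: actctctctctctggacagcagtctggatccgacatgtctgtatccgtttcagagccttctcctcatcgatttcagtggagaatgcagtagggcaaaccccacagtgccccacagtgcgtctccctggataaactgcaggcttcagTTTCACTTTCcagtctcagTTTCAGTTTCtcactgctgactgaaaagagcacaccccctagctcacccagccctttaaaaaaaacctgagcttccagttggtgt

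The inhibitor genes Nfkbie and Nfkbia and the transcription factor gene Irf1 each held 1 NF-κB match, beginning 106, 29 and 13 bases before the start. Cxcl10 held 2 NF-κB matches at 159 and 103 bases and 1 GAAA pair at 213 bases before the start. Gbp5 held 1 of each, at 77 and 165 bases, and Ifit1 held 2 GAAA pairs at 104 and 85 bases and no NF-κB match. Over the window from 250 bases before to 50 bases after the start, 43 of the 274 induced genes with a RefSeq window (15.7%) held the NF-κB consensus, against 592 of 11232 genes tested (5.27%), 1175 of 27025 RefSeq windows (4.35%) and 2 of 34 repressed genes (5.88%). The GAAA pair was in 55 induced genes (20.1%), 349 genes tested (3.11%), 943 RefSeq windows (3.49%) and none of the repressed genes. TGANTCA, the AP-1 motif, which is not in capitals here, was in 34 induced genes (12.4%), 559 genes tested (4.98%), 2144 RefSeq windows (7.93%) and none of the repressed genes. Within the gene lists, 4 of 6 induced NF-κB genes with a window held the NF-κB consensus and 17 of 31 induced interferon response genes held the GAAA pair. Of 9 induced MHC class I and antigen processing genes 3 held the NF-κB consensus and none the GAAA pair, and none of the 6 NF-κB genes held the GAAA pair and 4 of the 31 interferon response genes the NF-κB consensus. A match describes the letters only and is not evidence of binding.

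Most genes of the NF-κB list were induced. Of 11 subunits and inhibitors, 8 were induced (4, 4, 5 and 6 with 1 library left out) and none was repressed, and the median log2 fold change of the 11 was 1.29. Nfkbie (chr17:45555703-45563169, + strand) encodes the inhibitor IκBε and had the smallest p-value of all genes. It measured 6.48 and 7.36 CPM at the basal level and 112 and 110.0 CPM after TNF-α. The stimulated libraries were close together and both far above the basal ones (log2 fold change 4.0, SE 0.134, adjusted p = 0.000125). Nfkbia (chr12:55489410-55492647, - strand), which encodes the inhibitor IκBα, measured 25.8 and 32.3 CPM and then 396 and 417 CPM (log2 fold change 3.81, SE 0.167, adjusted p = 0.000255). The rise of the inhibitors was accompanied by that of the subunits of the alternative NF-κB dimer, Relb and Nfkb2. Relb rose from 15.6 and 17.9 CPM to 112 and 114 CPM (log2 fold change 2.75, SE 0.14, adjusted p = 0.000268) and Nfkb2 from 44.9 and 48.2 CPM to 193 and 199 CPM (log2 fold change 2.07, SE 0.119, adjusted p = 0.000447). The atypical inhibitor gene Bcl3 rose by 2.44 on the log2 scale (adjusted p = 0.00547) and Nfkbib, encoding IκBβ, by 0.89 (adjusted p = 0.00634). The subunits of the canonical dimer changed less. Nfkb1, which encodes the p105 precursor, rose from 38.8 and 38.8 CPM to 94.5 and 95.2 CPM (log2 fold change 1.29, SE 0.23, adjusted p = 0.0334), and Rela, which encodes p65, from 62.7 and 61.7 CPM to 90.1 and 86.8 CPM (log2 fold change 0.51, SE 0.0912, adjusted p = 0.0342). Rel (log2 fold change 1.03, adjusted p = 0.105) and Nfkbiz (1.26, adjusted p = 0.324) did not pass.

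Of 21 receptor complex genes 3 were induced (1, 1, 2 and 2 with 1 library left out), against 2.35% of all genes tested, and the median of the 21 was 0.24. All 3 act at the ubiquitin step below the receptor. Birc3 (chr9:7848699-7873186, - strand), which encodes the ubiquitin ligase cIAP2, measured 3.13 and 2.7 CPM at the basal level and 42.1 and 35.7 CPM after TNF-α (log2 fold change 3.73, SE 0.162, adjusted p = 0.000255). Its partner Birc2, encoding cIAP1, rose from 31.8 and 35.9 CPM to 80.7 and 84.2 CPM (log2 fold change 1.29, SE 0.139, adjusted p = 0.00433). The adaptor gene Traf2 rose from 24 and 22 CPM to 50.5 and 55.8 CPM (log2 fold change 1.21, SE 0.157, adjusted p = 0.00923). For Tnfrsf1a, which encodes the main signalling receptor of TNF-α, the groups overlapped at 112 and 108 CPM and 105 and 115 CPM. Tnfrsf1b, encoding the other receptor, measured 9.44 and 6.96 CPM and 21 and 13.7 CPM and did not pass (log2 fold change 1.08, adjusted p = 0.186). The kinase gene Ripk1 (0.24, adjusted p = 0.263) and the ligase gene Rnf31 (0.76, adjusted p = 0.102) were likewise not called.

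Negative feedback regulators were induced in 6 of 15 cases (2, 2, 4 and 5 with 1 library left out), and 1 was repressed. The shares over all genes tested were 2.35% induced and 0.294% repressed. Tnfaip3, which encodes the ubiquitin-editing enzyme A20, measured 12 and 11.9 CPM at the basal level and 146 and 132 CPM after TNF-α. Both stimulated libraries were above both basal ones (log2 fold change 3.54, SE 0.332, adjusted p = 0.0027). Its binding partner gene Tnip1 rose from 37.5 and 37.5 CPM to 122 and 121 CPM (log2 fold change 1.69, SE 0.112, adjusted p = 0.00086). Tnfaip2, a classic TNF-α target, had a steeper change, from 5.19 and 3.0 CPM to 159 and 152 CPM (log2 fold change 5.23, SE 0.373, adjusted p = 0.00106). Zfp36, encoding an mRNA-destabilizing protein (log2 fold change 1.20, adjusted p = 0.00421), N4bp1 (0.83, adjusted p = 0.0253) and Tnfaip8 (0.46, adjusted p = 0.0433) completed the induced set. These 6 genes are counted by their place in the list, and a feedback role was not tested for any of them. Pdlim2, which encodes a nuclear ligase that ends NF-κB activity by marking p65 for degradation, went the other way, from 57.2 and 61.8 CPM to 41.5 and 42.6 CPM (log2 fold change -0.50, SE 0.086, adjusted p = 0.0291), and it did not pass with any 1 of the 4 libraries left out. Socs3 (-0.64, adjusted p = 0.811) and the deubiquitinase gene Cyld (0.27, adjusted p = 0.65) did not pass.

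Most chemokine genes tested were induced. The lists held 18 CC and 15 CXC and CX3C chemokines, of which 9 and 5 had too few counts to be tested. A gene without basal counts entered the test only through its counts in other libraries. The counts and medians therefore describe the tested genes and not the whole lists. Of 9 CC chemokines tested 5 were induced (4 in each case with 1 library left out), and the median of the 9 was 4.57, or 6.82 without basal replicate 1 and 3.74 without basal replicate 2. Of 10 CXC and CX3C chemokines 6 were induced (3, 3, 4 and 5), and their median was 3.23, or 2.67 when genes without basal counts were set at their bound. Cxcl10 (chr5:92346638-92348889, - strand), a chemoattractant of T cells through the receptor CXCR3, measured 6.91 and 6.16 CPM at the basal level and 2526 and 1739 CPM after TNF-α. The stimulated libraries differed from each other, yet both lay far above the basal ones (log2 fold change 8.35, SE 0.398, adjusted p = 0.000255). Ccl2 (chr11:82035571-82037453, + strand), which attracts monocytes, measured 1.93 and 1.3 CPM and then 588 and 446 CPM (log2 fold change 8.30, SE 0.438, adjusted p = 0.000286). Its neighbour on the chromosome and in function, Ccl7, rose from 1.2 and 0.651 CPM to 142 and 82.8 CPM (log2 fold change 6.89, SE 0.515, adjusted p = 0.00118). The T cell chemokine gene Ccl5 rose from 0.30 and 0.15 CPM to 19.8 and 15.2 CPM (log2 fold change 6.21, SE 0.374, adjusted p = 0.000578, or 6.82 as log2 fold change without basal replicate 1).

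Several chemokine genes had no counts or at most 3 in each basal library, and for these the counts are given. Ccl20, whose product attracts cells with the receptor CCR6, had 0 and 0 counts at the basal level and 93 and 55 after TNF-α, at least 26.7-fold higher (adjusted p = 0.00165). Cxcl9, a further CXCR3 ligand, had 0 and 0 counts and then 44 and 25, at least 12.4-fold higher (adjusted p = 0.0124). Cxcl11, annotated as a polymorphic pseudogene, had counts of 0 and 2 and then 415 and 116, a ratio of 294 with a 95% counting interval of 81.0 to 2435 (adjusted p = 0.00605). The call of Cxcl9 was lost without basal replicate 1 (adjusted p = 0.0988), basal replicate 2 (0.0886) or TNF-α replicate 1 (0.0895), and that of Cxcl11 without either basal replicate (0.0905 and 0.0736) and with limma-voom (0.0839). The fitted log2 fold change of Cxcl11 was 6.95 without basal replicate 1, 11.23 without basal replicate 2 and 7.0 without TNF-α replicate 1. Ccl9 had counts of 2 and 0 and then 23 and 24, a ratio of 26.0 (6.82 to 221, adjusted p = 0.027, with 0.0924 without basal replicate 1, 0.162 without basal replicate 2 and 0.471 with effective length offsets). The membrane-bound chemokines were induced as well. Cx3cl1 (fractalkine), whose receptor marks microglia, rose from 218 and 248 CPM to 666 and 706 CPM (log2 fold change 1.56, SE 0.104, adjusted p = 0.00086), and Cxcl16 from 2.62 and 2.25 CPM to 31 and 23.9 CPM (log2 fold change 3.49, SE 0.263, adjusted p = 0.00121).

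The neutrophil chemokines stayed at about 11 CPM or less in both groups. Cxcl2 measured 0.386 and 0.651 CPM at the basal level and 4.2 and 3.85 CPM after TNF-α (log2 fold change 2.97, SE 0.543, adjusted p = 0.0374). Cxcl1 measured 2.19 and 1.65 CPM and 9.28 and 11 CPM without overlap of the groups, but it did not pass (log2 fold change 2.38, SE 0.662, adjusted p = 0.165). Cxcl5 had counts of 0 and 0 and 8 and 4 (adjusted p = 0.124). Of these 3 ligands of the neutrophil receptor CXCR2, Cxcl2 alone passed. Ccl17 (log2 fold change 2.02, adjusted p = 0.128) and the constitutive Cxcl12 (0.42, adjusted p = 0.677) did not pass.

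Among 13 cytokines and colony stimulating factors 7 were induced (1, 1, 2 and 4 with 1 library left out). The list held 24 genes, of which 11 had too few counts to be tested, and 2.35% of all genes tested were induced. Csf1, the growth factor of microglia and macrophages, was expressed before stimulation, at 448 and 417 CPM, and rose to 1603 and 1488 CPM (log2 fold change 1.84, SE 0.204, adjusted p = 0.00483). Il34, the other ligand of the same receptor, rose by 1.53 on the log2 scale (adjusted p = 0.0384). Il6 rose from 0.815 and 1.05 CPM to 7.34 and 3.33 CPM (log2 fold change 2.53, SE 0.453, adjusted p = 0.0341), and without TNF-α replicate 1 its log2 fold change was 1.83 (adjusted p = 0.155). Il23a, encoding a subunit of interleukin-23, had counts of 3 and 1 and then 83 and 47, a ratio of 36.0 (13.7 to 134, adjusted p = 0.00287, and 0.0415 without basal replicate 1). Csf2, which encodes GM-CSF, had no basal counts and 14 and 8 counts after TNF-α, at least 3.97-fold higher (adjusted p = 0.0248). With DESeq2 its adjusted p was 0.0047 over all 8 libraries and 0.0514 over the 4 GSTM1 KD libraries. Its level was thus induced but marginal. Lif, a cytokine that acts on astrocytes themselves (log2 fold change 1.08, adjusted p = 0.0177), and Il15 (1.92, adjusted p = 0.0276) were the remaining induced members. Ifnb1, encoding interferon-β, had no basal counts and 25 and 9 counts after TNF-α, at least 5.99-fold higher, and did not pass (adjusted p = 0.102).

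Of 9 TNF superfamily ligands 3 were induced (1, 1, 2 and 2 with 1 library left out). Another 9 of the 18 ligands listed had too few counts to be tested, and 2.35% of all genes tested were induced. Tnfsf10, which encodes the death ligand TRAIL, had counts of 6 and 2 at the basal level and 487 and 194 after TNF-α (log2 fold change 6.48, SE 0.545, adjusted p = 0.00176). Both stimulated libraries were far above both basal ones, with replicate 1 the higher, and the log2 fold change was 7.32 without basal replicate 1 and 5.88 without TNF-α replicate 1. Tnfsf18, encoding the ligand of GITR, rose by 4.37 on the log2 scale (adjusted p = 0.0057), and the T cell co-stimulator gene Cd70, with no basal counts and 32 and 14 counts after TNF-α, was at least 8.18-fold higher (adjusted p = 0.037).

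Most adhesion and co-stimulation genes tested were induced, and 3 of the 16 listed were not tested. Of 13 tested 8 were induced (5, 4, 6 and 6 with 1 library left out), with a median of 2.66. Icam1 (chr9:21015985-21028817, + strand), the ligand of leukocyte integrin LFA-1, measured 15.2 and 12.7 CPM at the basal level and 202 and 154 CPM after TNF-α (log2 fold change 3.67, SE 0.18, adjusted p = 0.000268). Vcam1, which binds the integrin VLA-4, was expressed before stimulation at 241 and 242 CPM and rose to 1596 and 1448 CPM (log2 fold change 2.66, SE 0.142, adjusted p = 0.000294). The selectin genes, which are best known from activated endothelium, were nearly silent before stimulation. Sele had counts of 4 and 3 and then 222 and 182 (log2 fold change 5.95, SE 0.506, adjusted p = 0.00178), and Selp measured 0.987 and 0.551 CPM and then 34.5 and 34 CPM (log2 fold change 5.44, SE 0.495, adjusted p = 0.0024). The 10 endothelial markers summed to 10.5 and 13.2 CPM at the basal level and 14.7 and 20.6 CPM after TNF-α, none passed, and their part in the selectin rise was not tested. Cd274, encoding the inhibitory ligand PD-L1, rose from 5.36 and 3.75 CPM to 149 and 69.6 CPM (log2 fold change 4.57, SE 0.423, adjusted p = 0.00253), and its log2 fold change was 3.92 without TNF-α replicate 1. Cd40, encoding a TNF receptor family co-stimulator (log2 fold change 5.09, adjusted p = 0.00919, with 5.94 without basal replicate 1 and 4.26 without TNF-α replicate 1), Madcam1 (4.01, adjusted p = 0.0219, with 3.26 without basal replicate 1 and 5.35 without basal replicate 2) and the hyaluronan receptor gene Cd44 were also induced. Cd44 was expressed throughout, at 678 and 650.3 CPM and then 1165 and 1138 CPM (log2 fold change 0.79, SE 0.106, adjusted p = 0.0103).

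**Figure D2:**
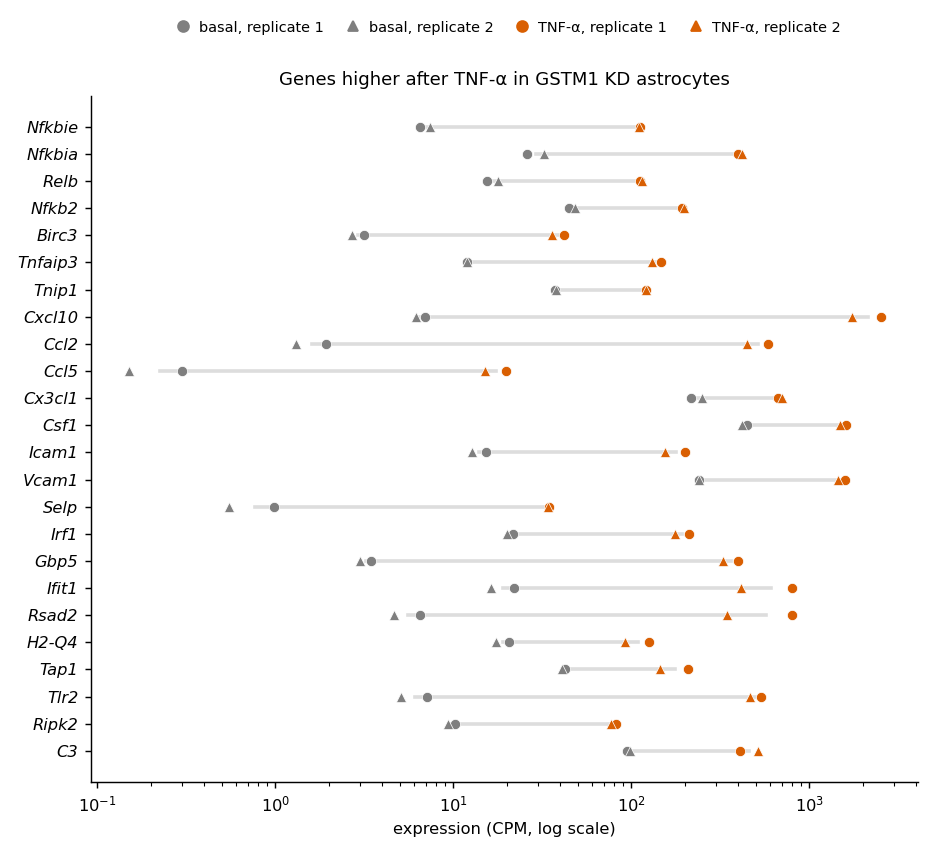
Level in each of the 4 libraries, in CPM on a log scale, of induced genes described in the text, with basal and TNF-α libraries in different colours and the replicates as separate points. In every gene shown, both stimulated libraries lie above both basal libraries, and for most genes the replicates lie close together relative to the step between the groups.

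The interferon response list held the largest number of induced genes. Of its 45 members 41 were induced (19, 14, 35 and 42 with 1 library left out) and none was repressed, with a median log2 fold change of 3.06. Irf1 (chr11:53770014-53778374, + strand), a transcription factor gene under direct NF-κB control, measured 21.6 and 20.1 CPM at the basal level and 211 and 177 CPM after TNF-α (log2 fold change 3.22, SE 0.145, adjusted p = 0.000255). Among the other interferon regulatory factors, Irf5 (log2 fold change 3.79, adjusted p = 0.000859), Irf7 (2.80, adjusted p = 0.00605) and Irf9 (1.74, adjusted p = 0.00162) rose and Irf8 did not pass (adjusted p = 0.994). Stat2, which encodes a signal transducer of interferon receptors, rose by 2.85 on the log2 scale (adjusted p = 0.00421).

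Ifit1, whose product binds viral RNA, measured 22 and 16.2 CPM at the basal level and 804 and 416 CPM after TNF-α. TNF-α replicate 1 was well above replicate 2, and both were far above the basal libraries (log2 fold change 4.99, SE 0.34, adjusted p = 0.00091). Rsad2, which encodes viperin, had 6.52 and 4.66 CPM and then 802 and 344 CPM (log2 fold change 6.67, SE 0.493, adjusted p = 0.00118), with a log2 fold change of 5.93 without TNF-α replicate 1. Ifit3, a relative of Ifit1, rose from 118 and 85.4 CPM to 1354 and 789 CPM (log2 fold change 3.40, SE 0.398, adjusted p = 0.00598). The guanylate-binding protein genes Gbp5 and Gbp2, which act on intracellular pathogens, had less spread between the stimulated libraries. Gbp5 rose from 3.43 and 3.0 CPM to 399 and 326 CPM (log2 fold change 6.81, SE 0.493, adjusted p = 0.00111) and Gbp2 from 37.7 and 46 CPM to 732 and 626 CPM (log2 fold change 4.02, SE 0.523, adjusted p = 0.00922). Also induced were the immunity-related GTPase genes Irgm1 (log2 fold change 3.32, adjusted p = 0.00162) and Irgm2 (4.17, adjusted p = 0.000978), the ubiquitin-like modifier gene Isg15 (3.18, adjusted p = 0.00294), the ADP-ribosyltransferase gene Parp14 (4.10, adjusted p = 0.000764) and Rtp4 (4.11, adjusted p = 0.00106). Oas2, with counts of 0 and 2 and then 45 and 14, a ratio of 32.7 (8.66 to 276), did not pass (adjusted p = 0.0528), nor did Bst2 (log2 fold change 0.95, adjusted p = 0.0606). Genes of these families have close relatives, and their counts depend on how shared reads were divided.

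The interferon response genes shared a difference between the stimulated replicates. In TNF-α replicate 1 all 41 induced members were above replicate 2, with a median log2 difference of 0.81 (CPM plus 0.5), while their basal replicates differed by a median of 0.13. Over all 361 induced genes the median difference of the stimulated replicates was 0.26, and 275 of the 361 were higher in replicate 1, against 7531 of the 15332 genes tested. For induced NF-κB genes the median was 0.0049, for feedback regulators 0.11, for adhesion genes 0.11, for CC chemokines 0.39 and for CXC and CX3C chemokines 0.38. It was 0.60 for the 3 induced TNF superfamily ligands, 0.39 for cell death genes, 0.38 for cytokines, and 0.34 for pattern recognition receptors and for MHC class I genes. The shared direction was not particular to the interferon response genes. All 3 induced TNF superfamily ligands, all 5 pattern recognition genes and all 12 MHC class I genes were also higher in TNF-α replicate 1. The spread between the stimulated libraries was thus wider for the interferon response genes than for the NF-κB genes, a comparison given as a description, with no test.

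**Figure D3:**
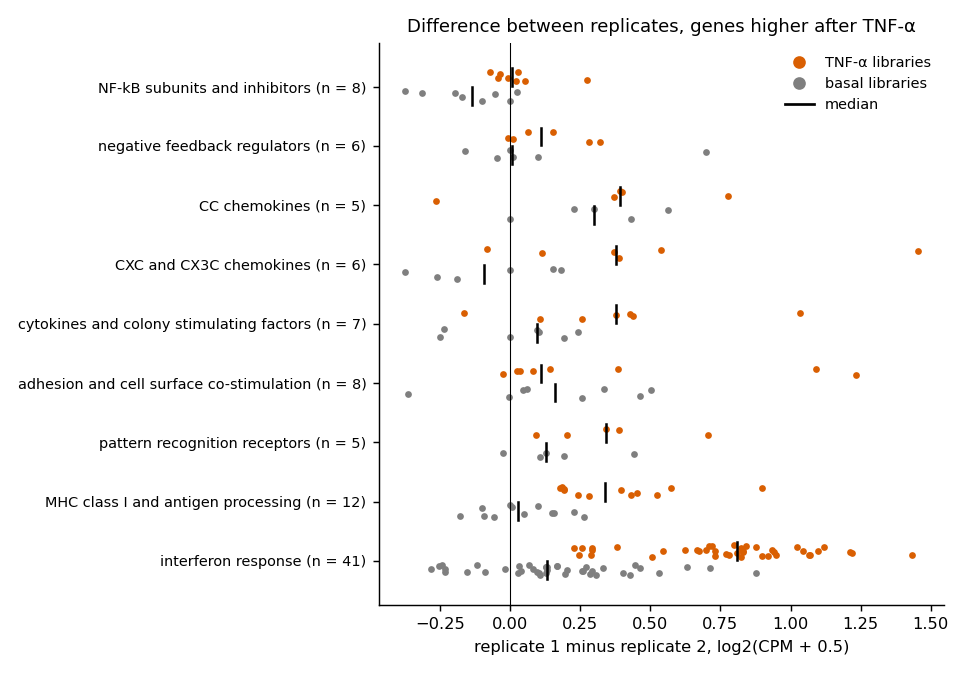
Log2 difference between replicate 1 and replicate 2, in the TNF-α libraries and in the basal libraries, for the induced genes of 9 gene lists, 1 point per gene with the median marked. In the TNF-α libraries the interferon response genes all lie above 0 with a median of 0.81, and the NF-κB genes centre on 0.

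Genes for MHC class I and antigen processing were induced in 12 of 20 cases (3, 2, 6 and 11 with 1 library left out), with a median of 1.20 and all 20 log2 fold changes above 0. H2-Q4, a non-classical class I gene, measured 20.6 and 17.5 CPM at the basal level and 126 and 91.7 CPM after TNF-α (log2 fold change 2.52, SE 0.17, adjusted p = 0.000896). Tap1, a chain of the peptide transporter, rose from 42.4 and 41 CPM to 208 and 145 CPM (log2 fold change 2.08, SE 0.176, adjusted p = 0.00178), and the partner Tap2 by 1.57 on the log2 scale (adjusted p = 0.00421). All 3 catalytic subunits of the immunoproteasome rose, Psmb8 by 2.09 (adjusted p = 0.00745), Psmb9 by 1.66 (adjusted p = 0.0207) and Psmb10 by 1.67 (adjusted p = 0.00294). Nlrc5, the transactivator of class I genes, rose by 2.51 (adjusted p = 0.0117). With effective length offsets its adjusted p was 0.062 at a log2 fold change of 2.51. The classical heavy chain genes had smaller fold changes. H2-K1 rose from 133 and 143 CPM to 352 and 308 CPM (log2 fold change 1.26, SE 0.169, adjusted p = 0.0105) and H2-D1 by 0.99 on the log2 scale (adjusted p = 0.00605). B2m, encoding the light chain, measured 209.6 and 204 CPM and 354 and 276 CPM and did not pass (log2 fold change 0.61, adjusted p = 0.10).

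Of 18 pattern recognition receptor genes and their adaptors 5 were induced (2, 2, 4 and 4 with 1 library left out). Tlr2, the receptor of bacterial lipoproteins, was the steepest, at 7.12 and 5.11 CPM at the basal level and 534 and 464 CPM after TNF-α (log2 fold change 6.34, SE 0.461, adjusted p = 0.00111). Ripk2 (chr4:16122733-16163647, - strand), the kinase gene of the NOD pathway, rose from 10.2 and 9.31 CPM to 81.8 and 76.7 CPM (log2 fold change 3.02, SE 0.153, adjusted p = 0.000268). The adaptor gene Myd88 rose by 1.48 on the log2 scale (adjusted p = 0.00333), the double-stranded RNA receptor gene Tlr3 by 1.55 (adjusted p = 0.0144) and the inflammatory caspase gene Casp1 by 1.12 (adjusted p = 0.0385). Tlr4, the receptor of endotoxin, did not pass (log2 fold change 0.54, adjusted p = 0.667). For this list and the cell death genes, the induced share of all genes tested was 2.35%. Among the 25 cell death genes 3 were induced (1, 1, 2 and 3), namely Casp4, a caspase gene that senses intracellular endotoxin (4.72, adjusted p = 0.00243), the pro-apoptotic Bid (1.89, adjusted p = 0.00425) and the death receptor gene Fas, which rose from 65 and 70.4 CPM to 152 and 158 CPM (log2 fold change 1.19, SE 0.234, adjusted p = 0.0493).

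Nitric oxide and prostaglandin genes were induced in 3 of 13 cases, none of which passed with any 1 library of the comparison left out. Nos2, the inducible nitric oxide synthase gene, had counts of 1 and 1 at the basal level and 68 and 80 after TNF-α, a ratio of 82.0 (22.3 to 683, adjusted p = 0.0303). Gch1, which encodes the first enzyme in making its cofactor tetrahydrobiopterin, rose by 2.19 on the log2 scale (adjusted p = 0.0117), and Ptges, a prostaglandin E synthase gene, by 1.54 (adjusted p = 0.0219). Ptgs2, encoding the cyclooxygenase COX-2, did not pass (0.97, adjusted p = 0.0558). Of 15 complement genes only C3 was induced (0 with any 1 library left out). Of all genes tested, 2.35% were induced. C3 measured 94.8 and 98.4 CPM at the basal level and 409.5 and 514 CPM after TNF-α (log2 fold change 2.26, SE 0.423, adjusted p = 0.0416). Cfb, another component of the alternative pathway, had counts of 2 and 3 and then 19 and 15, a ratio of 7.53 (2.93 to 24.7), and did not pass (adjusted p = 0.0581).

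Of 13 pan-reactive genes 2 were induced (1 in each case with 1 library left out), and of 12 genes of the neurotoxic A1 set 4 were induced (1, 1, 2 and 4), while none of 11 genes of the A2 set passed (5 at an unadjusted p under 0.05, 2 called by DESeq2). For comparison, 2.35% of all genes tested were induced and 0.294% repressed. The medians of the pan-reactive, A1 and A2 sets were 0.53, 0.96 and 0.27. All 4 induced A1 genes are also members of the MHC class I or interferon response lists and are counted there. Log2 fold changes were above 0 for 8 of the 12 A1 genes and for 9 of the 11 A2 genes. Gfap, the intermediate filament gene used as the marker of reactive astrocytes, measured 3119 and 5627 CPM at the basal level and 2983 and 5209 CPM after TNF-α. Replicate 2 was the higher in both states and the groups overlapped. Lcn2, encoding lipocalin-2, measured 37.5 and 14.4 CPM and 65.5 and 63.1 CPM and did not pass (adjusted p = 0.448), nor did Steap4 (log2 fold change 2.57, adjusted p = 0.26) or Ptx3 (2.20, adjusted p = 0.0813). None of 30 genes of astrocyte identity and homeostasis passed (1 at an unadjusted p under 0.05, none by DESeq2), and their median was -0.13, between -0.32 and 0.0077 with 1 library left out. Among them, the transcription factor gene Sox9 measured 236 and 243 CPM and 144 and 161 CPM (log2 fold change -0.65, adjusted p = 0.297), and the glutamate transporter gene Slc1a2 had a log2 fold change of 0.28 (adjusted p = 0.995).

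Of 30 AP-1 and immediate early genes tested 3 were induced (1 in each case with 1 library left out), against 2.35% of all genes, and the median was 0.02 (-0.02 to 0.17). Junb (chr8:84974484-84978718, - strand), which encodes an AP-1 subunit, measured 37.8 and 45.3 CPM at the basal level and 211 and 219 CPM after TNF-α (log2 fold change 2.37, SE 0.122, adjusted p = 0.000268). The other induced members were Fosl2 (0.63, adjusted p = 0.031) and Atf3 (0.72, adjusted p = 0.0319), while Fos did not pass (-0.96, adjusted p = 0.306). Of 27 matrix proteases and inhibitors only Plau, encoding the urokinase plasminogen activator, was induced, from 4.93 and 6.36 CPM to 16.5 and 17.9 CPM (log2 fold change 1.61, SE 0.16, adjusted p = 0.00326), also with any 1 library left out. None of 26 extracellular matrix genes passed, with 3 at an unadjusted p under 0.05 and 1 called by DESeq2.

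A further 5 induced genes ranked among the 10 smallest p-values or the 10 largest fitted fold changes and belong to no list. Stx11, which encodes a syntaxin of vesicle fusion, rose from 2.49 and 2.7 CPM to 42 and 37 CPM (log2 fold change 3.93, SE 0.186, adjusted p = 0.000255, or 3.25 as log2 fold change with effective length offsets, adjusted p = 0.00162). Acod1, whose enzyme makes the antimicrobial metabolite itaconate in macrophages, had no basal counts and 66 and 40 counts after TNF-α, at least 19.2-fold higher (adjusted p = 0.00593, but 0.0575 without basal replicate 1 and 0.0527 without basal replicate 2). The 16 microglia and macrophage markers summed to 56.2 and 51.4 CPM before and 58.3 and 47.8 CPM after stimulation. Of the 11 of them tested none passed, 8 had a log2 fold change above 0 and the median was 0.37 (-0.24 to 0.95 with 1 library left out), and their part in the rise of Acod1 was not tested. Trim30c, with no basal counts and 35 and 16 counts after TNF-α, was at least 9.09-fold higher (adjusted p = 0.0258). The unnamed loci RP23-52N2.1 (no basal counts and 68 and 51 counts after TNF-α, at least 21.8-fold higher, adjusted p = 0.00365) and RP23-14F5.7 (counts of 1 and 1 and then 223 and 80, a ratio of 168 with an interval of 46.1 to 1392, adjusted p = 0.00436) were the others. The exons of RP23-14F5.7 overlap those of Tgtp1 on the same strand, and its fitted log2 fold change moved from 7.18 to 6.47 without TNF-α replicate 1. Its adjusted p was 0.0831 without basal replicate 1 and 0.0771 without basal replicate 2, and Trim30c did not pass with any 1 of the 4 libraries left out (0.069 to 0.155).

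Repressed genes were fewer than induced genes, and their median log2 fold change was closer to 0. Of the 45, the number passing was 3 without basal replicate 1, 0 without basal replicate 2, 2 without TNF-α replicate 1 and 5 without TNF-α replicate 2. Their median basal level was 54.0 CPM, against 15.0 CPM for induced genes and 22.6 CPM for all genes tested, a scale that does not correct for transcript length. Plekhh3 (chr11:101162679-101171351, - strand), which had the smallest p-value among them, measured 60.1 and 57.7 CPM at the basal level and 33.5 and 33.4 CPM after TNF-α (log2 fold change -0.82, SE 0.0837, adjusted p = 0.00365). Its exons overlap those of Cntnap1 on the opposite strand. Hey1 (chr3:8663359-8667256, - strand), a transcriptional repressor gene downstream of Notch, fell from 120.1 and 133 CPM to 57.7 and 64.8 CPM (log2 fold change -1.05, SE 0.112, adjusted p = 0.00421). It passed in 3 of the 4 fits with a library left out and failed without basal replicate 2.

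Ephb3, a receptor tyrosine kinase gene for ephrin-B ligands, fell from 50.4 and 57.7 CPM to 22.9 and 26.1 CPM (log2 fold change -1.14, SE 0.135, adjusted p = 0.00605). Adrb1, encoding the β1-adrenergic receptor, fell from 46.7 and 38.8 CPM to 16.3 and 16.6 CPM (log2 fold change -1.38, SE 0.19, adjusted p = 0.0117). Rgs2, whose product shortens signalling through G proteins, measured 61.8 and 61.8 CPM and then 26.4 and 28.5 CPM (log2 fold change -1.17, SE 0.196, adjusted p = 0.0264). In all 3 the stimulated libraries were close together and below both basal ones. Spry1, an inhibitor gene of receptor tyrosine kinase signalling, fell from 20.6 and 20.2 CPM to 9.69 and 11.8 CPM (log2 fold change -0.93, SE 0.124, adjusted p = 0.0105). Among called genes with a basal mean of at least 1 CPM, the largest falls were those of Wscd2, from 45.6 and 50.8 CPM to 15.7 and 15.2 CPM (log2 fold change -1.64, SE 0.252, adjusted p = 0.019), and of the sialyltransferase gene St6galnac5, from 11.2 and 10.9 CPM to 3.6 and 4.02 CPM (log2 fold change -1.53, SE 0.195, adjusted p = 0.00837).

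The other repressed genes that ranked by p-value or fold change were Usp51 (log2 fold change -1.53), Slc35f3 (-1.36), Fam65b (-1.06), Tub (-1.0), Rab3a, a vesicle GTPase gene (-0.87), Pxdc1 (-0.64) and Midn (-0.63), with adjusted p between 0.00925 and 0.0355. Olig2, the transcription factor gene of the oligodendrocyte lineage that some astrocytes also express, fell from 75.9 and 75.7 CPM to 47.3 and 48.2 CPM (log2 fold change -0.67, SE 0.116, adjusted p = 0.031). The summed level of the 12 oligodendrocyte lineage markers was 615 and 608 CPM at the basal level and 543 and 537 CPM after TNF-α, no other member passed, and their part in the fall of Olig2 was not tested.

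**Figure D4:**
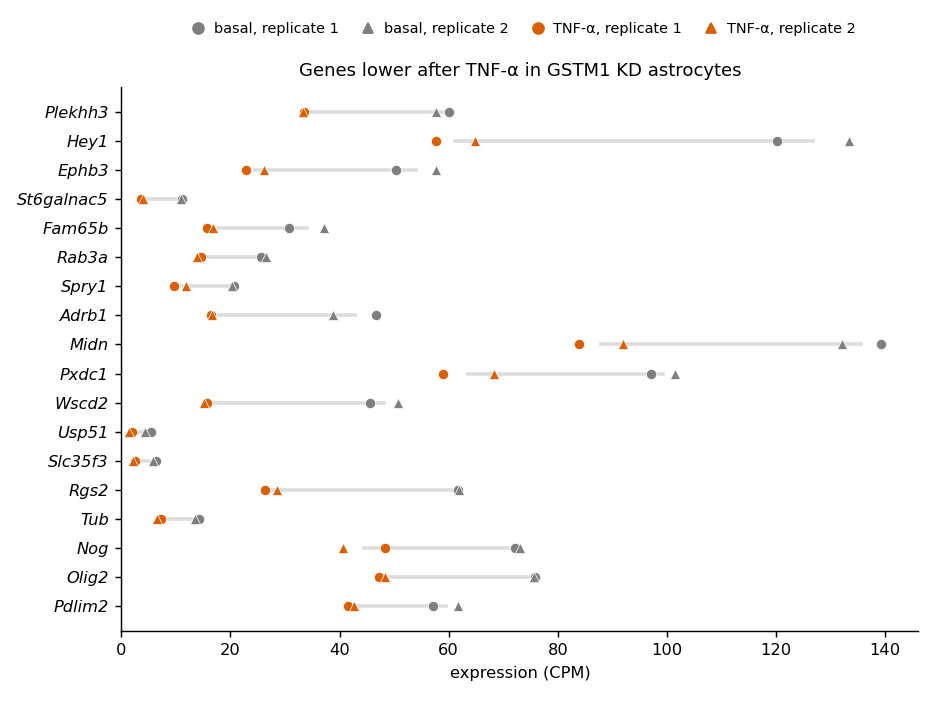
Level in each of the 4 libraries, in CPM, of 18 repressed genes described in the text, with basal and TNF-α libraries in different colours. Both stimulated libraries lie below both basal libraries in every gene shown.

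In the Notch list Hey1 was the 1 repressed gene of 15 and Dll1, encoding a Notch ligand, the 1 induced gene. Dll1 rose from 2.02 and 2.5 CPM to 7.99 and 5.11 CPM (log2 fold change 1.54, SE 0.286, adjusted p = 0.0394). Among the fits without 1 GSTM1 KD library, Dll1 passed only without TNF-α replicate 2. The receptor gene Notch1 (-0.63, adjusted p = 0.202) and the ligand gene Jag2 (-0.84, adjusted p = 0.245) did not pass. In the BMP and TGF-β list 3 of 28 were induced and 1 repressed (2.35% and 0.294% of all genes), none of which passed with any 1 library left out. Bmp2, a ligand gene, rose from 1.37 and 0.801 CPM to 7.34 and 7.93 CPM (log2 fold change 2.79, SE 0.416, adjusted p = 0.0162), and Nog, which encodes the BMP antagonist noggin, fell from 72.2 and 73 CPM to 48.3 and 40.5 CPM (log2 fold change -0.71, SE 0.114, adjusted p = 0.0232). The ligand and its antagonist thus went opposite ways. Smad3 (0.99, adjusted p = 0.0426) and the receptor gene Tgfbr2 (0.62, adjusted p = 0.0497) were the other induced members. Of 27 growth and neurotrophic factors only Pdgfb was induced (0, 0, 1 and 1), from 30.2 and 38.2 CPM to 129 and 152 CPM (log2 fold change 2.04, SE 0.265, adjusted p = 0.00922). Of 30 cell cycle genes only Cdkn2b, encoding the inhibitor p15, was induced (0 with any 1 library left out), from 32.2 and 33.1 CPM to 68.7 and 75.9 CPM (log2 fold change 1.15, SE 0.206, adjusted p = 0.0344).

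In several lists no gene passed, which with 2.65% of all genes called is near the overall share for lists of this size. None of 24 oxidative stress and NRF2 target genes was called, with a median log2 fold change of 0.06 (-0.0029 to 0.10 with 1 library left out), among them Hmox1 (0.17, adjusted p = 1.0) and the mitochondrial superoxide dismutase gene Sod2 (0.17, adjusted p = 0.917). None of 18 glutathione S-transferase genes was called either, with a median of -0.11 (-0.13 to -0.028 with 1 library left out). The same held for 27 genes of the Wnt and Hedgehog pathways (median -0.20) and 23 of cholesterol synthesis and uptake (-0.02, between -0.21 and 0.18 with 1 library left out). It also held for 24 of the unfolded protein and integrated stress response (-0.0028, between -0.024 and -0.0075 with 1 library left out). By the same test at an unadjusted p under 0.05, 1 NRF2 target, 6 Wnt and Hedgehog genes, 1 gene of the unfolded protein list and none of the glutathione S-transferases or cholesterol genes would be counted, and DESeq2 called none in these 5 lists. The lists together accounted for 121 of the 361 induced genes and 3 of the 45 repressed genes.

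**Figure D5:**
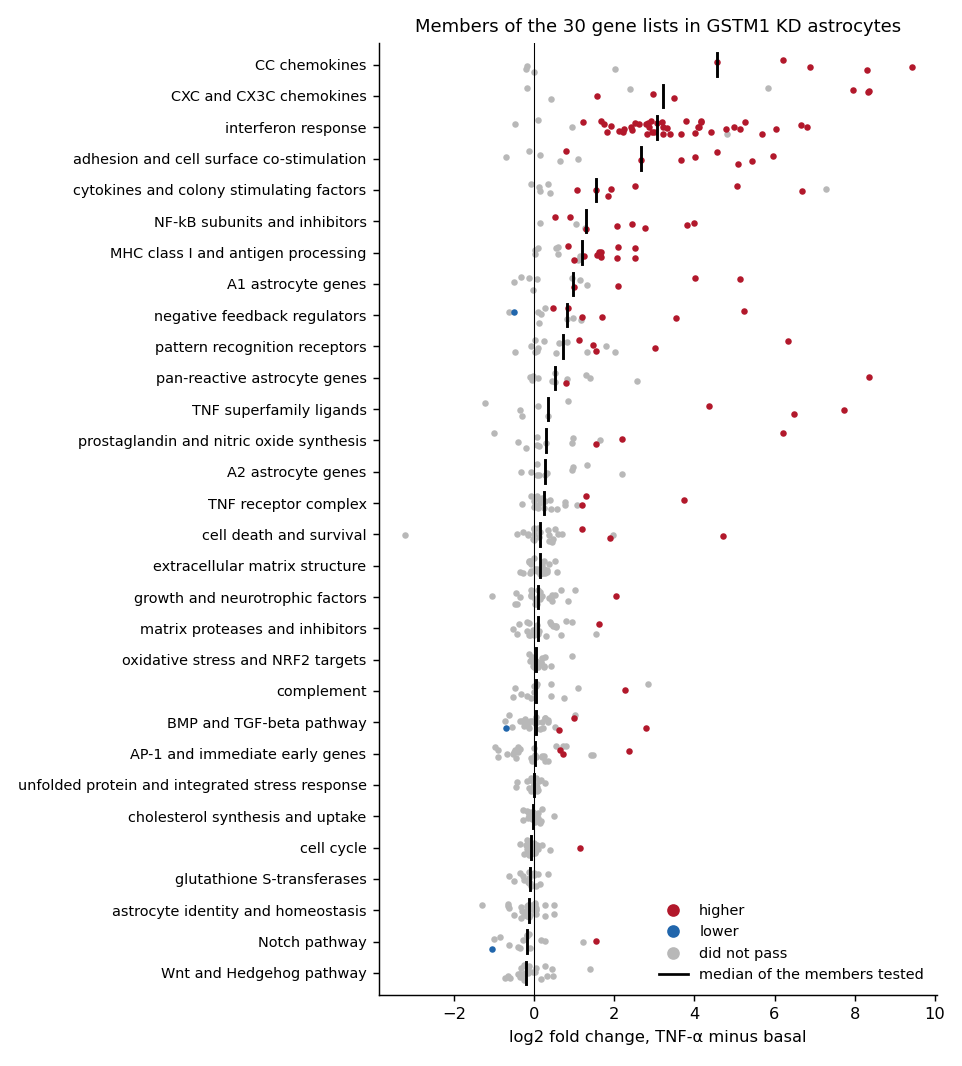
Log2 fold change after TNF-α of every tested member of each gene list, 1 point per gene, with genes that passed coloured and the median of each list marked. The chemokine, interferon response and adhesion lists lie to the high side with medians from 2.66 to 4.57, and the astrocyte identity, stress and metabolic lists centre near 0.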

How the data were processed

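RNA of the 8 libraries (4 groups of 2) was sequenced by the study as paired-end reads from a directional library kit. The authors mapped reads to GRCm38 with STAR 2.5.4b and estimated expected counts, TPM and effective lengths per gene with RSEM 1.3.0, and these deposited values were the starting point. The annotation release and use of the strand in counting are not given in the sources used here. RSEM divides reads shared by several genes among them, so levels of close paralogs are uncertain. Total expected counts were between 17349682 and 34434615 per library.

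Expected counts were rounded to whole numbers. Genes were kept by edgeR's filterByExpr over all 8 libraries (15332 of 54146), scaled by TMM and tested with the quasi-likelihood test of edgeR 4.0.16 in R 4.3.3, with 1 coefficient per group and the contrast of stimulated against basal GSTM1 KD libraries. All 8 libraries entered the fit, so that 4 groups shared the estimate of the spread. P-values were adjusted by Benjamini-Hochberg over all genes tested, and a gene passed at an adjusted p under 0.05. The study used DESeq2 for such comparisons, which was run here (1.42.0) as an alternative. A gene without basal counts was given as at least a fold, the stimulated counts against 3 counts per library, and a gene with at most 3 counts in each basal library, and at least 1 in all, as a ratio with a 95% exact counting interval.

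Named genes were the 10 in each direction with the smallest p-values and the 10 with the largest fitted fold changes (mean of at least 1 CPM in the higher group, no overlap between the groups), the members of 30 gene lists and 7 marker lists as examples of their list, and Gstm1. For a gene without basal counts this rank rests on the fitted value and not on the lower bound. Members and lists were chosen with earlier results of these data known. Gene positions came from GENCODE vM21 (GRCm38), matched on Ensembl identifiers. Sequences came from RefSeq, matched on symbols. The test between groups was tried on simulated data. It recovered 2 of 67 genes changed 1.5-fold, 42 of 67 changed 2-fold and 57 of 66 changed 4-fold. All 3 folds were set in the same simulated data, in which 10 other genes were called in total. The changed genes were drawn from those above a minimum expected count, so recovery at low counts was not tried. Alternatives were DESeq2, limma-voom (limma 3.58.1), a newer dispersion method, a minimum fold of 1.5, other scalings and count filters, effective lengths as offsets, fewer libraries, a replicate block and leaving out each library. Tables and figures were made in Python 3.11.15 with pandas 2.3.3, numpy 2.4.6, scipy 1.17.1 and matplotlib 3.10.9.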

Additional observations from a re-analysis of the deposited data

How the results depend on the processing

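The direction of all 406 genes was kept in every alternative in which they were fitted. DESeq2 called 629 genes (515 higher, 114 lower) over all 8 libraries, including 404 of the 406, and 877 (635 and 242) over the 4 GSTM1 KD libraries. Testing against a minimum fold of 1.5 left 187 (184 and 3). Testing all genes with a count gave 1050 (725 and 325), the 4 GSTM1 KD libraries alone gave 691 (518 and 173), and scaling by library size only gave 412 (344 and 68), with the median of all genes at -0.05. Other tests, scalings and filters gave 333 to 429 genes, and leaving out 1 control KD library 382 to 444. Leaving out 1 of the 8 libraries gave from 74 genes (without GSTM1 KD basal replicate 2) to 444 in all, 74 to 380 higher and 0 to 64 lower. The cause of these shifts was not tested. With 2 libraries per group, a change that did not pass is not shown to be absent.

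The replicate number is shared between groups, but nothing states that it pairs cultures. Replicate deviations correlated across genes at 0.46 between the stimulated and basal GSTM1 KD libraries and 0.69 between the control KD libraries, which with 2 numbers does not show pairing. With a replicate block the count was 808 (613 and 195) over all 8 libraries and 2900 (1617 and 1283) over the 4 libraries. In the last fit lists without a call gained some: astrocyte identity 15, Wnt and Hedgehog 16, extracellular matrix 14, NRF2 targets 9, A2 genes 6, cholesterol 3, the unfolded protein response 3 and glutathione S-transferases 1. The log2 fold change of Tnfrsf1a, 0.0034 as reported, was -0.0040 with DESeq2, -0.0043 with DESeq2 size factors and with at least 10 counts in every library, -0.0422 with library size only, -0.0111 with no filter and -0.0017 with the replicate block, and between -0.0598 and 0.0656 with 1 library left out. That of Gfap, -0.09 as reported, was 0.39 without basal replicate 2 and 0.25 without TNF-α replicate 1, and between -0.55 and 0.39 over these fits.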

Other observations

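The genes in this section were chosen after their values were seen, and their counts are descriptions. Ifngr2, a receptor gene of interferon-γ, measured 20.1 and 18.7 CPM at the basal level and 62.7 and 66.1 CPM after TNF-α (log2 fold change 1.73, SE 0.105, adjusted p = 0.000578). Ifngr1 rose by 0.77 on the log2 scale (adjusted p = 0.00819). Among the fits without 1 GSTM1 KD library, Ifngr1 passed only without TNF-α replicate 1. Socs1, an inhibitor gene of the same pathway, rose from 5.15 and 4.11 CPM to 36.4 and 16.3 CPM (log2 fold change 2.51, SE 0.377, adjusted p = 0.0166, or 1.81 as log2 fold change without TNF-α replicate 1). Ciita, the class II transactivator gene, measured 0.30 and 0.551 CPM and then 4.66 and 7.18 CPM (log2 fold change 3.80, SE 0.67, adjusted p = 0.0324), Rfx5, of the factor that binds class II promoters, rose by 1.10 (adjusted p = 0.00333, but 0.0607 without basal replicate 1 and 0.0541 without basal replicate 2) and the invariant chain gene Cd74 went from 0.257 and 0.25 CPM to 3.79 and 3.45 CPM (log2 fold change 3.80, SE 0.331, adjusted p = 0.00196). The class II chain genes H2-Aa (1.39 and 0.919 CPM after TNF-α, adjusted p = 0.263) and H2-Ab1 (2.45 and 2.24 CPM, adjusted p = 0.25) stayed at low levels, and none of 5 class II genes tested passed, with a median log2 fold change of 1.06. Cd83, a surface molecule of mature antigen-presenting cells, rose from 0.30 and 0.451 CPM to 8.63 and 6.78 CPM (log2 fold change 4.36, SE 0.324, adjusted p = 0.00118).

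All 9 guanylate-binding protein genes tested and all 10 immunity-related GTPase genes rose, with median log2 fold changes of 4.02 and 4.65. Of the guanylate-binding protein genes 4 passed without basal replicate 1, 5 without basal replicate 2, 7 without TNF-α replicate 1 and 9 without TNF-α replicate 2, and of the immunity-related GTPase genes 8, 8, 10 and 10 in this order. Of the Schlafen genes 4 of 5 were induced, of the Ifi200 family 5 of 8 and of the oligoadenylate synthetases 5 of 8. Of the PARP genes 6 of 12 were induced and of the TRIM genes 12 of 46. All 5 counts were lower without either basal replicate or without TNF-α replicate 1. No gene of these families passed as repressed. The induced share of all genes tested was 2.35%. Members of a family share sequence, so their counts are not independent. Many lie side by side. There were 11 clusters of 4 or more called genes with gaps of at most 100000 bases between called neighbours, and these held 57 of the 406 called genes, all of them induced. The longest series was at chr11:48861968-49135387 (GRCm38), where 9 of 10 genes tested rose, from Irgm1 to Ifi47. At chr17:35377021-35443773, within the H2-Q region, all 5 genes tested rose. At chr5:92284010-92365485 4 of 5 rose, namely Sdad1, Cxcl9, Cxcl10 and Cxcl11. Each cluster was built from called genes and begins and ends at one, so a high share inside it follows from how it was drawn.

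Trp53 rose from 79 and 75.3 CPM to 152 and 154 CPM (log2 fold change 0.99, SE 0.149, adjusted p = 0.0168), Eda2r by 0.72 on the log2 scale (adjusted p = 0.019) and Phlda3 by 0.44 (adjusted p = 0.0482). Sqstm1, the autophagy receptor gene, was expressed before stimulation at 439 and 426 CPM and rose to 701 and 686 CPM (log2 fold change 0.68, SE 0.0993, adjusted p = 0.0148).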
